A study of Mus musculus with 6 samples.

Results

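The glycolysis and hypoxia response genes are 34 genes for glucose and lactate transport, the enzymes of glycolysis, and the hypoxia-inducible factor HIF with its oxygen sensors and targets. They were taken by gene name from a table of 33300 features. The table lists Aldoa under 2 adjacent features, so 35 rows were found, and the main Aldoa feature stands for the gene in the counts below. RNA was measured in CD4 T cells of female mice, 3 control mice labelled WT and 3 SLE1.2.3 mice, with 1 library per mouse. Mice called SLE1.2.3 are prone to lupus and hold the Sle1, Sle2 and Sle3 intervals, which lie on chromosomes 1, 4 and 7. All 6 cultures started from naive cells and were kept for 5 days on plates coated with antibodies to CD3 and CD28. The medium of both groups held TGFβ1 at 1 ng/mL, IL-23 at 10 ng/mL, IL-6 at 50 ng/mL and IL-1β at 10 ng/mL, with antibodies to IL-4 and IFNγ at 10 µg/mL each, which drive cells towards the Th17 state. The mice were matched for age, which is not stated.

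Glycolysis splits glucose into pyruvate, and activated T cells send much of that pyruvate to lactate even where oxygen is present. HIF is a transcription factor whose α subunit is made constantly and destroyed when prolyl hydroxylases of the Egln family mark it in the presence of oxygen. When the α subunit persists, HIF raises the transcription of glucose transporters, glycolytic enzymes and genes for adaptation to low oxygen, among them Egln3 itself, which forms a feedback loop. In Th17 cells, HIF and glycolysis are known to promote the lineage.

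Levels are given in FPKM, the reads of a feature divided by its length and by the depth of its library. The reads assigned to features, recovered from the table, were between 29700000 and 56800000 in the control libraries and between 61700000 and 83500000 in the SLE1.2.3 libraries. Control library 3 was the shallowest and held 2.24% of its reads in ribosomal RNA features, against at most 0.0896% in the other libraries. All 9 CD4 T cell markers were present in every library, and 0 passed in limma or voom. At an unadjusted p under 0.05 only Cd3g differed, from 125 to 143 FPKM on average. Lck and Cd3d had log2 changes of 0.08 and 0.01, and the other 6 had negative ones. Cd4 itself was at 246, 264 and 253 FPKM in control libraries 1, 2 and 3. In the SLE1.2.3 mice it was at 257, 144 and 71.6 FPKM, in the same order. Markers of other lymphocytes were higher in SLE1.2.3 libraries and differed among them, and their values are given beside the last results.

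Most of the 34 members had lower levels in SLE1.2.3 cells, and few passed the test. With limma on log2(FPKM + 1), Egln3 and Ldhb fell and 0 members rose at an adjusted p of 0.05. Of the 11378 features tested, 15.2% passed, with 5.58% lower and 9.65% higher, so that 2 lower of 34 is a share near the background. limma voom on recovered reads called the same pair lower and 0 higher. The second Aldoa feature also passed. At an unadjusted p under 0.05, 18 of the 34 were lower and 0 higher, where 35% of all features reached such a p and 14.8% did so with a lower level. The log2 change was negative in 32 of 34 members, against 47.5% of all features, with Hif1a and Pfkl as the exceptions. The direction of Hif1a and Pfkl flipped to negative under median ratio scaling and quantile normalization. The median log2 change was -0.42 over the members and 0.01 over all features tested. In 17 of 34 members all 3 SLE1.2.3 libraries lay below all 3 controls, where 17.7% of all features did so, and in 0 members did all lie above them, against 23.9% of all features. In bulk RNA, fewer cells that express a gene and less RNA per cell cannot be told apart.

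The 3 SLE1.2.3 libraries differed widely. SLE1.2.3 library 3 lay below every control library in 34 of 34 members, against 36.3% of all features. For Hif1a that gap was 225.424 against 225.436 FPKM, far smaller than the SD of 14.5 FPKM among the controls. Library 2 did so in 28 members (35.3% of all features) and library 1 in 19 members (32.3% of all features). Relative to the control mean, the median difference of the members on the log2(FPKM + 1) scale was -0.20 in library 1, -0.30 in library 2 and -0.79 in library 3. Over all features these medians were 0.02, 0.01 and 0.03. Library 3 was the lowest of all 6 libraries in 32 of 34 members, against 26.3% of all features; the other 2 members were Slc16a1, lowest in SLE1.2.3 library 1, and Eno3, lowest in SLE1.2.3 library 2. The spread on the log2 scale was larger among SLE1.2.3 than among control libraries in 33 of 34 members, and in 67.3% of all features.

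**Figure D1:**
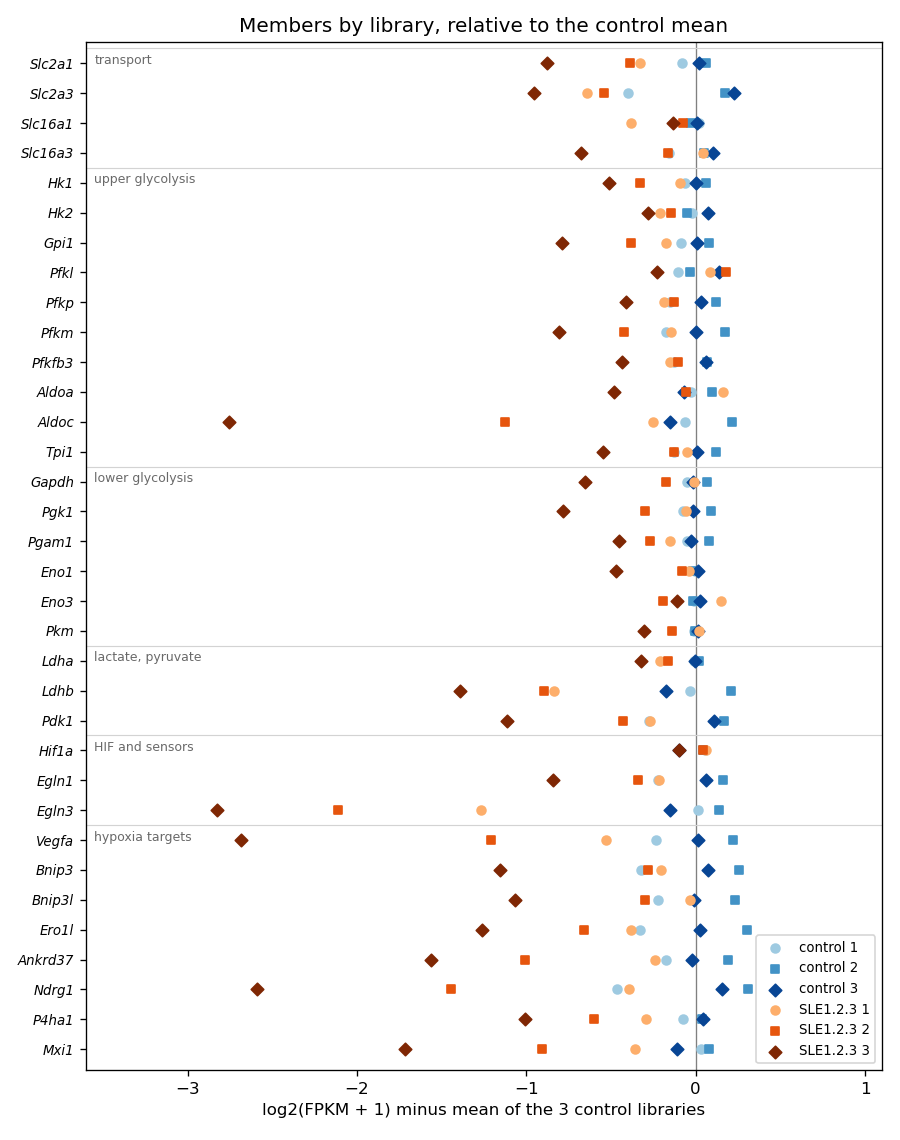
Each of the 34 members in each library, as log2(FPKM + 1) minus the mean of the 3 control libraries, grouped by role; blue points are control and orange to brown points SLE1.2.3 libraries. SLE1.2.3 library 3 lies to the left of all controls in every row, and Egln3, Aldoc, Vegfa and Ndrg1 reach the most negative values.

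Of the oxygen-sensing genes, Egln3 fell while Hif1a had the same level in both groups. Hif1a, which encodes the oxygen-regulated α subunit of HIF, was at 251, 249 and 225 FPKM in control libraries 1, 2 and 3. The SLE1.2.3 libraries 1, 2 and 3 held 252, 249 and 225 FPKM. The groups overlapped completely, with a log2 change of 0.00 ± 0.08 (SE; limma adjusted p = 0.997). Egln3, a HIF prolyl hydroxylase that is itself a HIF target, was at 291, 317 and 259 FPKM in the controls and at 119, 65.8 and 39.8 FPKM in libraries 1, 2 and 3 of the SLE1.2.3 mice. All SLE1.2.3 libraries lay far below the controls, at 41.2%, 22.8% and 13.8% of the control mean. Control cells had a mean of 289 ± 28.9 FPKM, and SLE1.2.3 cells one of 74.9 ± 40.3 FPKM (SD over 3 mice each), and it fell by 2.07 on the log2 scale (SE 0.37; limma adjusted p = 0.0203). Egln1, the main oxygen sensor that restrains HIF in most tissues, was at 82.4, 108 and 100.4 FPKM in the controls and at 82.7, 75.9 and 53.2 FPKM in libraries 1, 2 and 3 of the SLE1.2.3 mice. SLE1.2.3 library 1 was level with control 1, so the groups overlapped, and Egln1 did not pass (log2 change -0.47 ± 0.19 SE; limma adjusted p = 0.131).

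**Figure D2:**
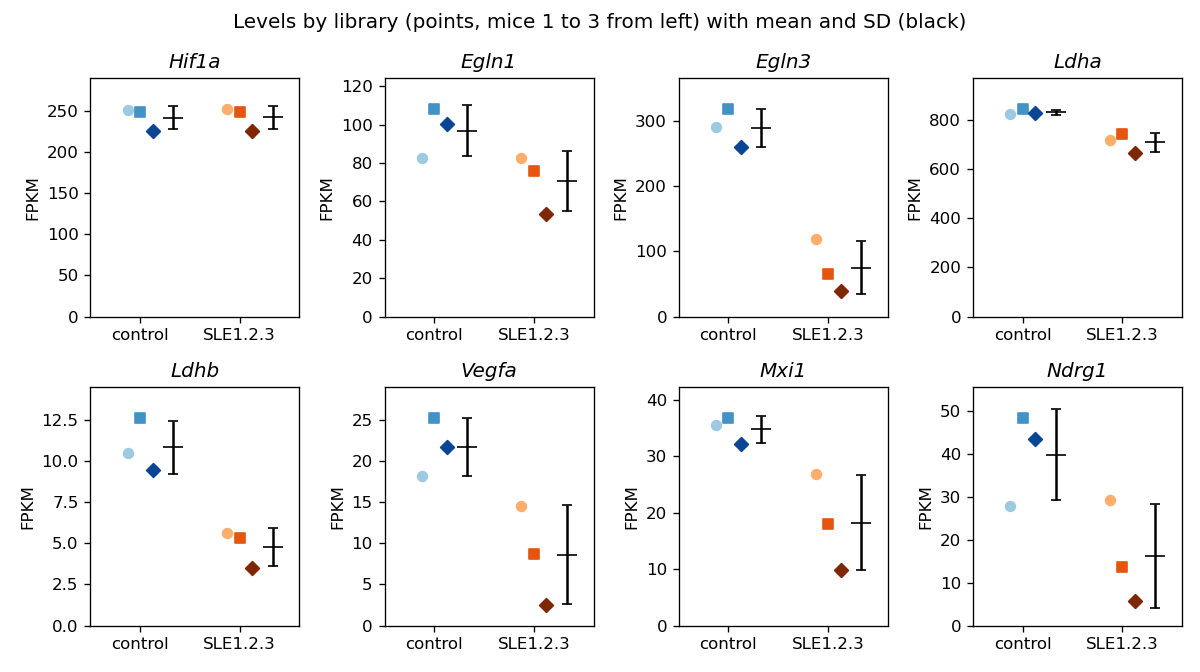
FPKM of 8 members by library, with control libraries in blue and SLE1.2.3 libraries in orange to brown, mice 1 to 3 from left within each group, and the mean with its SD in black. Hif1a has the same range in both groups, Egln3 and Ldhb have no overlap, and Vegfa, Mxi1 and Ndrg1 are lowest in SLE1.2.3 library 3.

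The 8 HIF target genes outside glycolysis had negative log2 changes in 8 of 8 cases and passed in 0, in limma and in limma voom. Their median log2 change was -0.85, and 6 of them were lower at an unadjusted p under 0.05 (14.8% of all features). Vegfa, the growth factor for blood vessels, was at 18.2, 25.2 and 21.8 FPKM in control libraries 1, 2 and 3 and at 14.6, 8.75 and 2.51 FPKM in libraries 1, 2 and 3 of the SLE1.2.3 mice. The groups did not overlap, and library 3 held 11.6% of the control mean (log2 change -1.47 ± 0.52 SE; limma adjusted p = 0.0992). Ndrg1, a gene induced by hypoxia and other stresses, was at 27.8, 48.2 and 43.3 FPKM in the controls and at 29.2, 13.6 and 5.60 FPKM in SLE1.2.3 cells. Here SLE1.2.3 library 1 lay above control 1, so that the groups overlapped (log2 change -1.48 ± 0.54 SE; limma adjusted p = 0.108). Vegfa and Ndrg1 passed when the libraries were rescaled to a common FPKM sum.

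Mxi1, which encodes a repressor that competes with MYC for its partner MAX, was at 35.5, 36.7 and 32.2 FPKM in the controls and at 26.8, 18.1 and 9.90 FPKM in libraries 1, 2 and 3 of the SLE1.2.3 mice. Ankrd37, a small ankyrin repeat gene induced by HIF, was at 14.2, 18.5 and 15.9 FPKM against 13.5, 7.50 and 4.78 FPKM. Ero1l, the oxidase that forms disulfide bonds in the endoplasmic reticulum, was at 89.3, 139 and 115 FPKM against 86.0, 70.9 and 46.4 FPKM. In these 3 genes every SLE1.2.3 library lay below every control, by a small margin in library 1 for Ankrd37 and Ero1l. Their limma adjusted p values were 0.0806, 0.0931 and 0.0895. P4ha1, a collagen prolyl hydroxylase subunit, was also separated, at 54.8, 59.4 and 59.6 FPKM against 47.1, 37.9 and 28.2 FPKM. It came closest to the threshold in this group (log2 change -0.63 ± 0.18 SE; limma adjusted p = 0.0583) and passed with array weights by genotype. Bnip3 and Bnip3l, related genes whose proteins mark mitochondria for removal, overlapped between the groups. Bnip3 lay between 67.1 and 101 FPKM in the controls and between 37.3 and 73.0 FPKM in SLE1.2.3 cells. Bnip3l lay between 74.6 and 103 FPKM in the controls and between 41.0 and 85.2 FPKM in SLE1.2.3 cells.

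HIF binds a short core, ACGTG or GCGTG, and promoter windows of the members were searched for both on either strand. The windows come from RefSeq (GRCm38.p6) and span 250 bases before to 50 bases after a transcription start, 300 bases each. A window was found for 31 of 34 members, Ero1l under its current symbol, and not for Slc2a3, Bnip3l and Ndrg1. ACGTG was present in at least 1 window of 23 of 31 members (74.2%) and of 5886 of 27025 genes in all (21.8%). GCGTG was present for 21 of 31 members (67.7%) and for 35.2% of all genes. The palindrome CACGTG, an E-box that MYC and MAX bind and that holds ACGTG on both strands, was present for 6 of 31 members (19.4%) and 8.09% of all genes. Many members are known HIF targets, so these shares describe the choice of members and are not a test. The windows of 6 members are printed 5′ to 3′ on the strand of the gene, with each ACGTG or GCGTG on either strand in capitals, to set Egln3 and Ldhb, which fell, beside their relatives Egln1 and Ldha, the hypoxia target Ankrd37 and Hif1a. They are Egln3 (chr12:54203825-54204124, minus strand), Egln1 (chr8:124949205-124949504, minus strand), Ldhb (chr6:142507908-142508207, minus strand), Ldha (chr7:46845554-46845853, plus strand), Ankrd37 (chr8:45999801-46000100, minus strand) and Hif1a (chr12:73907617-73907916, plus strand).
Egln3: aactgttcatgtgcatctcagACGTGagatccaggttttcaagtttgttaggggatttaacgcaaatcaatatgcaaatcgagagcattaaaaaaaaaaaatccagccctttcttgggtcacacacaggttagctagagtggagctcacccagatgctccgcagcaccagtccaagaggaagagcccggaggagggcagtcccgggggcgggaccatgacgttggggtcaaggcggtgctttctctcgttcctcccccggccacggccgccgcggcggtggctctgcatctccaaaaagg
Egln1: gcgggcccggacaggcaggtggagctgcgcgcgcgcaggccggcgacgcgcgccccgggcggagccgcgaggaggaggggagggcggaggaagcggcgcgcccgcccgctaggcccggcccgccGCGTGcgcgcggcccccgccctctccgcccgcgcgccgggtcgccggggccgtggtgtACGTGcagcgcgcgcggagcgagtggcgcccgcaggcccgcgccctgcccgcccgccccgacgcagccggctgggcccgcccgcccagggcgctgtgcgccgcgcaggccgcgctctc
Ldhb: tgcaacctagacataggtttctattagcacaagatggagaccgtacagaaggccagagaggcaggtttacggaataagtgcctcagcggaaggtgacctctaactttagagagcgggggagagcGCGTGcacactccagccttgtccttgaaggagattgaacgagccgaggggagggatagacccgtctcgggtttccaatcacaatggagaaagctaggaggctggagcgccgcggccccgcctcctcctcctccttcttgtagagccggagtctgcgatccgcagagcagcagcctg
Ldha: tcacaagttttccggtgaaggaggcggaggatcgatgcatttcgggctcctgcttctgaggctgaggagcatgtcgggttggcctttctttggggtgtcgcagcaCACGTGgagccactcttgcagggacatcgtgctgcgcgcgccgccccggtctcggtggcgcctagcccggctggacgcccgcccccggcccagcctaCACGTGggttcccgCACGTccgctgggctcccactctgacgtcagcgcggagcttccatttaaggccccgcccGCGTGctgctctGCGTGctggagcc
Ankrd37: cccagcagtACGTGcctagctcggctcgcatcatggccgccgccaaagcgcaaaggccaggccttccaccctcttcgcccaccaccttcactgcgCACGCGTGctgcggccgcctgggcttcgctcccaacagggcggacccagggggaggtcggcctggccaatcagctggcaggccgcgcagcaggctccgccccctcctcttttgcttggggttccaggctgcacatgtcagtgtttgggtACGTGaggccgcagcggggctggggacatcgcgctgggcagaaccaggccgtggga
Hif1a: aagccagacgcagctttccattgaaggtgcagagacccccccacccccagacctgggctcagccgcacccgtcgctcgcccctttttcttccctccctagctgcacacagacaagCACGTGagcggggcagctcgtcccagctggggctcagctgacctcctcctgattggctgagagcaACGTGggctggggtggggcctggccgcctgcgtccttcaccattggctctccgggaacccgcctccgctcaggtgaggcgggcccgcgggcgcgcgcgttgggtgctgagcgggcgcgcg
The Egln3 window held 1 ACGTG and 0 GCGTG, and the Egln1 window 1 of each. The Ldhb window held 0 ACGTG and 1 GCGTG. The Ldha window held 2 CACGTG palindromes among its 5 ACGTG matches, counted on both strands, and 2 GCGTG. The Hif1a window held 1 CACGTG palindrome among 3 ACGTG matches, and the Ankrd37 window 2 ACGTG and 2 GCGTG, of which the GCGTG pair overlap each other on opposite strands. Ldha has a second window, not shown. A match describes letters in the window and not binding.

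The glucose and lactate transporters had negative log2 changes in 4 of 4 cases, and 0 passed in limma or voom, with 2 lower at an unadjusted p under 0.05 (14.8% of all features). Slc2a1, which encodes the glucose transporter of activated T cells, lies on chromosome 4 (119108711 to 119137983, mm10). It was at 74.0, 81.7 and 79.6 FPKM in control libraries 1, 2 and 3 and at 62.3, 59.7 and 42.2 FPKM in libraries 1, 2 and 3 of the SLE1.2.3 mice. Slc2a3, which encodes a high-affinity glucose transporter, was at 75.0, 112 and 116 FPKM against 63.1, 67.9 and 50.7 FPKM. Both genes were separated between the groups and lay just outside the threshold. Their log2 changes were -0.53 ± 0.15 and -0.71 ± 0.19 (SE; limma adjusted p = 0.0628 and 0.0565). Slc2a1 passed with array weights by genotype. Slc16a1, a lactate carrier, had the highest SLE1.2.3 value at 16.9 FPKM and the lowest control value at 17.5 FPKM, and its lowest library was SLE1.2.3 library 1 at 13.5 FPKM. Slc16a3, the carrier that exports lactate from highly glycolytic cells, was at 82.9, 95.8 and 99.5 FPKM against 95.4, 82.5 and 57.5 FPKM. Its groups overlapped, and only SLE1.2.3 library 3 stood well below the controls.

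Of the 10 genes for the first steps of glycolysis, 0 passed in limma or voom, and 4 were lower at an unadjusted p under 0.05 (14.8% of all features). Hk2, the inducible hexokinase that traps glucose in the cell, was at 41.4, 40.6 and 44.3 FPKM in the controls and at 36.2, 38.0 and 34.4 FPKM in libraries 1, 2 and 3 of the SLE1.2.3 mice. The separation was small but free of overlap (log2 change -0.21 ± 0.07 SE; limma adjusted p = 0.0777). Hk1, the constitutive hexokinase, was at 64.3, 70.0 and 67.3 FPKM against 62.9, 53.3 and 46.8 FPKM. Gpi1, the isomerase of the second step, lay between 151 and 169 FPKM in the controls and at 142, 123 and 92.3 FPKM in SLE1.2.3 mice. Hk1 and Gpi1 were separated too, with SLE1.2.3 library 1 nearest to the controls.

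Phosphofructokinase, the committed step, is built from subunits encoded by Pfkl, Pfkp and Pfkm. Pfkl was at 51.5, 54.2 and 61.0 FPKM in the controls and at 58.9, 63.0 and 47.2 FPKM in SLE1.2.3 cells, with full overlap. Pfkp lay between 41.9 and 51.0 FPKM in the controls and between 35.0 and 42.7 FPKM in SLE1.2.3 cells, and Pfkm between 12.6 and 16.2 FPKM against 7.75 and 12.8 FPKM. Pfkfb3, which makes the sugar phosphate that activates phosphofructokinase, was at 13.5, 15.7 and 15.6 FPKM against 13.3, 13.8 and 10.8 FPKM. It did not pass (log2 change -0.23 ± 0.11 SE; limma adjusted p = 0.186), and SLE1.2.3 library 2 lay above control 1.

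The aldolase genes behaved unequally among the SLE1.2.3 libraries. Aldoc, the aldolase best known from brain and a HIF target, was at 38.2, 46.4 and 35.9 FPKM in the controls and at 33.4, 17.8 and 5.08 FPKM in libraries 1, 2 and 3 of the SLE1.2.3 mice. Library 3 held 12.6% of the control mean, and the wide spread left the log2 change of -1.38 ± 0.59 (SE) outside the threshold (limma adjusted p = 0.154). Aldoa, the main aldolase of T cells on chromosome 7, was at 689, 752 and 669 FPKM against 785, 675 and 503 FPKM. SLE1.2.3 library 1 was the highest of the 6 for Aldoa and library 3 the lowest. The second Aldoa feature (chromosome 7, 126800790 to 126809108, mm10) lies just upstream of the first on the same strand. It was at 2.21, 2.09 and 1.60 FPKM in the controls and at 1.16, 1.01 and 1.32 FPKM in SLE1.2.3 cells (log2 change -0.45 ± 0.12 SE; limma adjusted p = 0.0478). That call ended with the filter left out (adjusted p = 0.12), at a common FPKM sum (0.188), with array weights (0.0578), with the replicate block (0.106), with voom on recovered reads (0.0539), with both SLE1.2.3 mice 2 and 3 omitted (0.161) and with 5 of the 6 single libraries left out. Tpi1, which interconverts the triose phosphates, lay between 533 and 633 FPKM in the controls and between 399 and 562 FPKM in SLE1.2.3 cells.

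The second part of the pathway, from Gapdh to Pkm, holds the most abundant members and passed in 0 of 6 cases in limma and voom, with 1 lower at an unadjusted p under 0.05 (14.8% of all features). Gapdh was at 956, 1039 and 980 FPKM in control libraries 1, 2 and 3 and at 986, 877 and 628 FPKM in libraries 1, 2 and 3 of the SLE1.2.3 mice. Pgk1, on the X chromosome, which makes the first ATP of the pathway, was at 939, 1053 and 975 FPKM against 948, 801 and 573 FPKM. In both genes SLE1.2.3 library 1 lay within the control range, and libraries 2 and 3 lay below it. Pkm, the pyruvate kinase, was at 1027, 1032 and 1046 FPKM against 1051, 941 and 837 FPKM, with library 1 the highest of all 6. Its splice forms cannot be told apart in a table of whole genes. Pgam1, the phosphoglycerate mutase, was separated, between 211 and 232 FPKM in the controls and between 160 and 197 FPKM in SLE1.2.3 cells (limma adjusted p = 0.0876). Eno1, the main enolase on chromosome 4, lay between 553 and 565 FPKM against 403 and 544 FPKM, and Eno3, the muscle enolase, between 5.88 and 6.07 FPKM against 5.08 and 6.71 FPKM.

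At the fate of pyruvate, Ldhb fell and its more abundant relative Ldha did not pass. Ldhb, the lactate dehydrogenase subunit that favours the use of lactate, was at 10.5, 12.6 and 9.43 FPKM in the controls and at 5.59, 5.33 and 3.48 FPKM in libraries 1, 2 and 3 of the SLE1.2.3 mice. All SLE1.2.3 libraries were low, library 1 included at 51.7% of the control mean. In library 1 Egln3 and Ldhb had the lowest such percentages of the 34 members. Slc2a3 came next and was also low in all SLE1.2.3 libraries, at 62.5%, 67.2% and 50.1% in libraries 1, 2 and 3. Control cells had a mean of 10.8 ± 1.61 FPKM and SLE1.2.3 cells one of 4.80 ± 1.15 FPKM (SD over 3 mice each), and Ldhb fell by 1.04 on the log2 scale (SE 0.17; limma adjusted p = 0.0178). Ldha, the subunit that favours lactate production, was at 825, 843 and 828 FPKM against 719, 742 and 666 FPKM. Its groups did not overlap, with a log2 change of -0.23 ± 0.09 (SE; limma adjusted p = 0.115). Pdk1, the HIF-induced kinase that keeps pyruvate out of mitochondria, was at 23.4, 32.3 and 30.8 FPKM against 23.6, 20.9 and 12.6 FPKM. Control 1 and SLE1.2.3 library 1 were level, and Pdk1 did not pass (log2 change -0.60 ± 0.24 SE; limma adjusted p = 0.130).

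**Figure D3:**
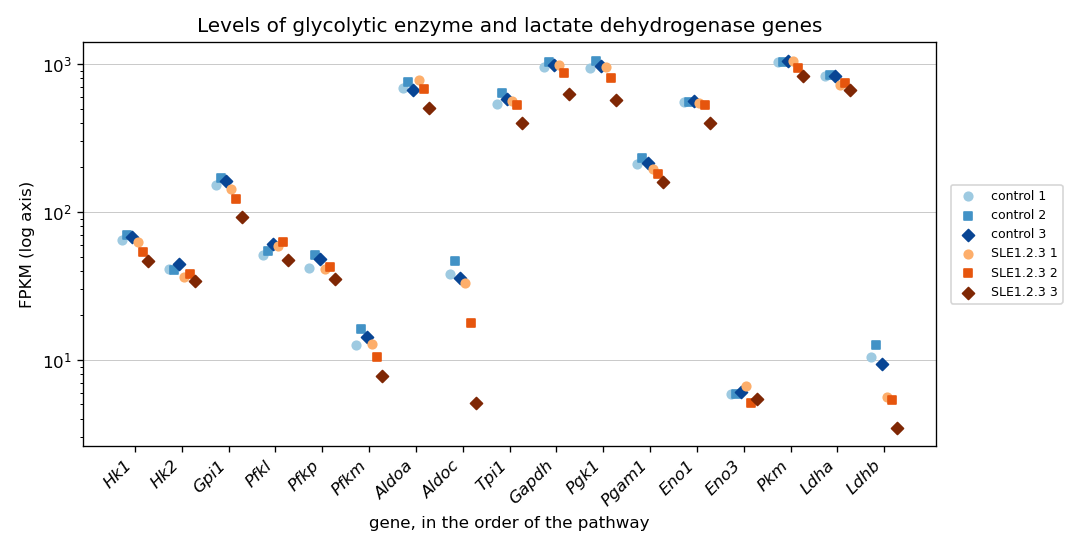
FPKM on a log axis of 17 glycolytic enzyme and lactate dehydrogenase genes in the order of the pathway, 1 point per library. Pkm, Gapdh, Pgk1 and Ldha are the most abundant, SLE1.2.3 library 3 is below the controls for every gene, and Aldoc and Ldhb show the widest gaps.

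The summed level of these 17 enzyme genes was 6155, 6603 and 6310.1 FPKM in control libraries 1, 2 and 3 and 6192, 5636 and 4446 FPKM in libraries 1, 2 and 3 of the SLE1.2.3 mice. SLE1.2.3 library 1 lay within the control range and the other 2 below it. The same genes took between 2.37% and 2.52% of all assigned reads in the controls and 2.38%, 2.18% and 1.74% in libraries 1, 2 and 3 of the SLE1.2.3 mice. The 8 hypoxia targets summed to 382, 531 and 463 FPKM in the controls and to 375, 297 and 176 FPKM in libraries 1, 2 and 3 of the SLE1.2.3 mice. Control library 1 was the lowest control in both sums, and also for Slc2a3, Ndrg1, Vegfa, Ero1l, Egln1 and Pdk1.

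Shares within a library do not depend on how libraries are scaled against each other, so 10 shares of related genes were compared by an exact two-sided permutation test, for which 3 against 3 libraries cannot give less than p = 0.1. Egln3 took 77.9%, 74.6% and 72.1% of the summed Egln3 and Egln1 level in control libraries 1, 2 and 3, and 59.0%, 46.4% and 42.8% in libraries 1, 2 and 3 of the SLE1.2.3 mice. Egln3 was thus the major of the pair in every control and the minor in SLE1.2.3 libraries 2 and 3. Ldhb took 1.28% ± 0.17 of the lactate dehydrogenase level in controls and 0.668% ± 0.13 in SLE1.2.3 cells, and Aldoc 5.39% ± 0.38 and 2.55% ± 1.54 of the aldolase level (SD, n = 3 each). Pfkl took 47.6% ± 2.6 of the phosphofructokinase level in controls and 53.0% ± 1.1 in the SLE1.2.3 group (SD, n = 3 each). In these 4 shares the groups did not overlap, with an exact p of 0.1 each and 0.25 after Benjamini-Hochberg adjustment over the 10 shares. The other 6 shares overlapped, with exact p values between 0.2 and 0.8. Among them, Slc2a1 took 44.2% ± 4.8 of the Slc2a1 and Slc2a3 level in controls and 47.3% ± 2.2 in the SLE1.2.3 group (SD, n = 3 each), and Hk2 38.5% ± 1.6 and 40.2% ± 3.2 of the level of both hexokinases.

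**Figure D4:**
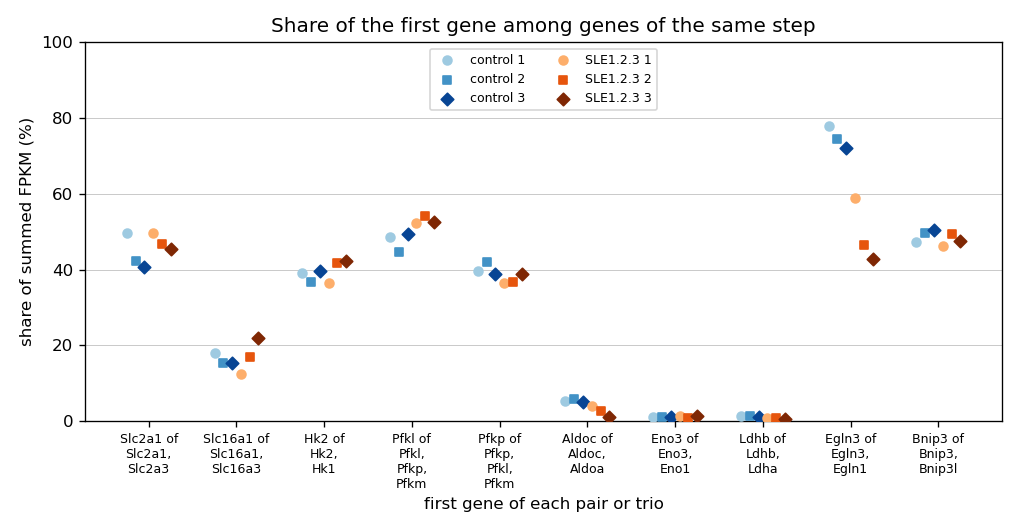
Share of the summed FPKM, in percent, that the first gene takes among genes of the same step, 1 point per library, for 10 shares. Egln3 drops from between 72.1% and 77.9% in the controls to between 42.8% and 59.0% in the SLE1.2.3 libraries, while most other shares overlap.

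Several glycolytic genes have processed pseudogenes, so reads can be split between copies. Transcripts of other features that matched a member at 95% identity or more over at least 200 bases were found for 14 of 34 members, with Gapdh at 90 such features. Gpi1 stood out, since its copy Gm1840 (chromosome 8, 5639580 to 5641011, mm10) held reads equal to 0.246%, 0.215% and 0.210% of those of Gpi1 in control libraries 1, 2 and 3. In SLE1.2.3 libraries 1, 2 and 3 the same pseudogene held 4.86%, 4.38% and 4.67%, so the groups did not overlap. Gm1840 was chosen after its values were seen. With its reads added, the log2 change of Gpi1 moved from -0.45 to -0.39. Gpi1 lies on chromosome 7 (34201330 to 34230336), as do Aldoa, Ldha and Bnip3. Pfkp and Pitrm1 overlap at their ends on opposite strands, and Pitrm1 held reads equal to between 7.57% and 13.0% of those of Pfkp. Gm49759 within Pkm and Gm26513 within Pfkm held at most 2.38% and 1.65%. In the other 10 members the copies held at most 0.852%. The strand setting of the counting is not given in the sources used here.

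Other genes of the same pathways were read from 6 lists, in which most genes did not pass, read against 5.58% lower and 9.65% higher over all features. Without control mouse 2 or SLE1.2.3 mouse 2, 0 genes were called lower in 5 of the 6 lists, the exception being the HIF regulators with 1. In those fits 0.642% and 0.615% of all features were lower. Without control mouse 1 or control mouse 3, 0.932% and 0.844% of all features were lower. Of 23 tested genes for other sugar handling, 3 fell and 0 rose: Pygl, a glycogen phosphorylase (log2 change -0.53), Pgm2, a phosphoglucomutase (-0.39), and Galk1, the galactokinase (-0.63). The count of 3 was 0 under the replicate block (2.94% of all features lower) and without control mouse 2, control mouse 3 or SLE1.2.3 mouse 2. It was 10 without SLE1.2.3 mouse 1, where 13.8% of all features were lower. Galk1 was at 101, 106 and 103 FPKM in the controls and at 75.6, 71.9 and 53.3 FPKM in libraries 1, 2 and 3 of the SLE1.2.3 mice (limma adjusted p = 0.0313). Of 10 pentose phosphate genes, which make ribose and NADPH, 1 fell and 0 rose, and the lower count was 0 also without control mouse 1. This was Prps1, which turns ribose phosphate into the precursor of nucleotides, from 44.8 ± 5.02 to 30.3 ± 2.31 FPKM (SD, n = 3 each). Tkt, the transketolase, was at 67.9 ± 2.30 and 55.9 ± 4.85 FPKM without passing (limma adjusted p = 0.0641). Prps1 and Tkt are named here as the lowest adjusted p values of the list, with Tkt chosen after its values were seen.

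Among 19 tested genes for the entry of pyruvate into mitochondria, 4 fell and 1 rose. The lower count was 0 or 1 without any 1 of the control mice or SLE1.2.3 mouse 2, and the higher count 0 without any 1 of the control mice. Pcx, the pyruvate carboxylase that refills the citrate cycle, was at 22.4, 19.0 and 18.9 FPKM in the controls and at 8.41, 3.97 and 2.29 FPKM in libraries 1, 2 and 3 of the SLE1.2.3 mice. It fell by 1.97 on the log2 scale (SE 0.36; limma adjusted p = 0.0214), with every SLE1.2.3 library far below every control. Me2, the mitochondrial malic enzyme, fell by 0.90, Pdha1, a subunit of pyruvate dehydrogenase, by 0.26 and Pdk3, a kinase that inhibits it, by 0.28 on the same scale. Me1, the cytosolic malic enzyme, rose by 1.92 and was at most 0.062 FPKM in the controls. Its mean reached the filter only because of the SLE1.2.3 libraries, so a rise was the one call it could get.

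Of 21 tested HIF regulators, 1 fell and 3 rose, and the higher count was 1 without any 1 of the control mice or SLE1.2.3 mouse 2. Hif3a, which encodes an α subunit known to dampen HIF activity, was at 2.08, 2.68 and 2.50 FPKM in the controls and at 0.607, 0.246 and 0.099 FPKM in libraries 1, 2 and 3 of the SLE1.2.3 mice (log2 change -1.39 ± 0.16 SE; limma adjusted p = 0.00776). Cited2, whose protein competes with HIF for its coactivators, was at 29.5, 33.7 and 34.3 FPKM against 60.7, 85.1 and 70.2 FPKM (log2 change 1.11 ± 0.13 SE; limma adjusted p = 0.00785). Both genes were separated by wide margins in every SLE1.2.3 library, library 1 included. Hif3a passed the filter through its controls, and its SLE1.2.3 mean of 0.317 FPKM was under 1 FPKM. Siah2, a ubiquitin ligase that acts on Egln proteins, rose by 0.42 on the log2 scale and Arnt2, a partner subunit of HIF, by 1.67. Arnt2 was at most 0.388 FPKM in the controls and passed the filter only through the SLE1.2.3 libraries. Arnt, the usual partner of Hif1a, was at 8.79 ± 0.34 and 8.35 ± 0.48 FPKM (SD, n = 3 each; limma adjusted p = 0.502), and was chosen for mention after its values were seen.

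Of 35 further hypoxia targets tested, 4 fell and 3 rose, with a median log2 change of -0.23. The lower count was 0 without any 1 of the control mice or SLE1.2.3 mouse 2, where between 0.615% and 0.932% of all features were lower. It was 15 without SLE1.2.3 mouse 1, where 13.8% of all features were lower. Plin2, which coats lipid droplets, rose from 24.1 ± 2.43 to 60.1 ± 6.15 FPKM (SD, n = 3 each), and the chemokine receptor gene Cxcr4 from 59.0 ± 7.48 to 92.7 ± 6.70 FPKM. Tfrc, the transferrin receptor gene, fell from 87.4 ± 4.88 to 53.5 ± 6.86 FPKM. The histone demethylase gene Kdm6b fell by 0.48 on the log2 scale, Cox4i2, a cytochrome oxidase subunit induced by low oxygen, fell by 1.09, and the fucosyltransferase gene Fut11 rose by 0.33. Cox4i2 had a control mean of 1.80 FPKM and an SLE1.2.3 mean of 0.350 FPKM, and its SLE1.2.3 libraries alone would not have reached the filter. Among 28 growth regulators, 1 fell and 2 rose, and both counts were 0 without any 1 of the control mice or SLE1.2.3 mouse 2. The genes were Mxd3, a MAX partner that represses transcription, lower by a log2 change of -0.37, and Akt2 and Mycn, higher by 0.32 and 1.98. Mycn was at most 0.306 FPKM in the controls and passed the filter only through the SLE1.2.3 libraries.

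Marker genes of γδ T, NKT, CD8 T and NK cells rose in sum from SLE1.2.3 library 1 to library 3, while the 34 members fell in sum. The 10 γδ T and NKT cell markers summed to between 3.45 and 4.05 FPKM in the controls and to 63.3, 290 and 644 FPKM in libraries 1, 2 and 3 of the SLE1.2.3 mice. Of the 9 tested, 8 rose in limma (9.65% of all features) and 1 in limma voom. All 9 had control means under 1 FPKM and reached the filter because of the SLE1.2.3 libraries alone; a fall could not have been called. The 10 CD8 T and NK cell markers summed to between 16.8 and 18.6 FPKM in the controls and to 83.1, 333 and 467 FPKM. Here 6 of 8 tested rose in limma (9.65% of all features) and 4 in limma voom. Of the 8, Klrk1, Prf1 and Cd8a passed the filter only through the SLE1.2.3 libraries. In all 8, every SLE1.2.3 library lay above every control. Klrd1 was at 5.68, 6.98 and 5.99 FPKM in control libraries 1, 2 and 3. It was at 19.9, 30.5 and 32.3 FPKM in libraries 1, 2 and 3 of the SLE1.2.3 mice. Ncr1, which was not tested, was at most 0.032 FPKM in every library. The library with the most of these markers, SLE1.2.3 library 3, was the one with the lowest level of 32 of 34 members. In library 1, where these sums were lowest among SLE1.2.3 libraries, Egln3 was at 119 FPKM and Ldhb at 5.59 FPKM, both below every control. When libraries 2 and 3 of the SLE1.2.3 group were omitted, the log2 change was -1.27 for Egln3 and -0.83 for Ldhb. That fit has 1 SLE1.2.3 library and assumes that it varies like the controls. Both marker sums in that library, 63.3 and 83.1 FPKM, were themselves above every control. The part of other cell types in the lower levels of the members, Egln3 and Ldhb included, was not tested.

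The B cell markers summed to between 56.2 and 63.3 FPKM in the controls and between 128 and 184 FPKM in SLE1.2.3 cells. Of the 4 tested, 3 were higher in limma (9.65% of all features) and 2 in limma voom. Jchain and Cd79b passed the filter only through the SLE1.2.3 libraries. Igkc, also called higher, was at 0.971, 0.695 and 1.644 FPKM in control libraries 1, 2 and 3. In SLE1.2.3 libraries 1, 2 and 3 it was at 56.4, 86.2 and 152 FPKM. Ighm, the tested gene that did not pass, had a log2 change of -0.54. Ms4a1, which was not tested, was at most 0.043 FPKM in every library. The myeloid markers summed to at most 12.3 FPKM, with 1 of 3 tested lower (Cd68), against 5.58% of all features. The red cell markers summed to at most 0.512 FPKM in any library. Of 7 tested stress and immediate early genes, 0 passed in limma or voom. At an unadjusted p under 0.05, Fos and Egr1 were lower and Atf3 and Jun higher, where 35% of all features reached such a p.

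**Figure D5:**
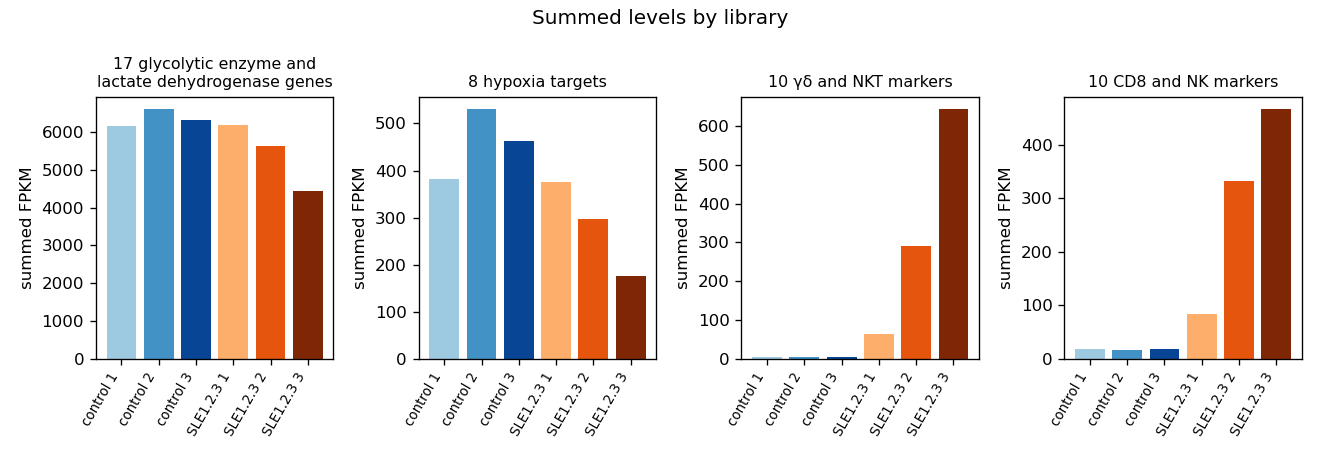
Summed FPKM by library of 17 glycolytic enzyme and lactate dehydrogenase genes, 8 hypoxia targets, 10 γδ T and NKT cell markers and 10 CD8 T and NK cell markers, with bars from 0. SLE1.2.3 library 3 has the lowest sums of the first and second panels (4446 and 176 FPKM) and the highest of the marker panels (644 and 467 FPKM).

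The number of members called changed when single libraries were left out, as did the share of all features called. Without SLE1.2.3 mouse 1, 18 of 34 members fell, namely Egln3, Ldhb, Aldoc, Ankrd37, Egln1, Ero1l, Gpi1, Hk1, Mxi1, Ndrg1, P4ha1, Pdk1, Pfkm, Pgam1, Pgk1, Slc2a1, Slc2a3 and Vegfa. In that fit 13.8% of all features were lower. Without control mouse 2, control mouse 3 or SLE1.2.3 mouse 2 the count was 0, where 0.642%, 0.844% and 0.615% of all features were lower. Without control mouse 1 the count was 1, Slc2a3, where 0.932% of all features were lower. In those 4 fits the limma adjusted p of Egln3 lay between 0.0746 and 0.0880 and that of Ldhb between 0.0604 and 0.0755, while the log2 change of Egln3 lay between -2.14 and -1.9995 and that of Ldhb between -1.13 and -0.94, against -2.07 and -1.04 with all mice. Without SLE1.2.3 mouse 3, Egln3, Ldhb and Slc2a1 fell, where 4.59% of all features were lower.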

How the data were processed

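RNA of 6 libraries was analysed. The authors deposited FPKM values for 33300 features with lengths and positions, 1 column per library. Per the submitters' processing notes the tools were FastQC 0.11.9, cutadapt 2.10, STAR 2.7.3a, featureCounts 2.0.0 and DESeq2 1.24.0 with build mm10; how each was used, with which annotation and strand setting, is not given in the sources used here. Assigned reads were recovered from the FPKM steps, which gave whole reads within 0.15 of a read for 100.0% of values under 30 reads.

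Features with a mean of at least 1 FPKM, 11378 in all, were fitted as log2(FPKM + 1), which understates changes of low genes, with limma 3.58.1 in R 4.3.3 (empirical Bayes with a mean-variance trend; the model held genotype alone). Benjamini-Hochberg adjustment ran over all of them, with a threshold of 0.05. The labels name separate mice, and the tests rest on the spread between those. All 35 member features passed the filter, and their control means alone were above it. The file holds no counts, so no count test was the main test. Copies were matched with blastn 2.17.0 against GENCODE M21 transcripts. The fit was tested on simulated counts with the same spread in both groups, so the wider spread among SLE1.2.3 libraries was not covered.

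The members and lists were chosen with earlier results of these data known. All members are described. Values in every library are given for members past the threshold, for the 8 largest changes and for Hif1a, Egln1, Slc2a1, Hk2, Pfkfb3, Ldha, Pdk1 and Vegfa, and for others where useful. Up to 6 called genes of each pathway list are named. Of the marker lists, 1 is not reported here. The replicate numbers do not pair the mice in the labels. Alternatives were other pseudocounts, filters, scalings and variance settings, limma voom on recovered reads, the mouse number as a block, and libraries left out. Adding the Gm1840 reads to Gpi1 was chosen after seeing the data.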

Additional observations from a re-analysis of the deposited data

How the results depend on the processing

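The 2 members called stayed at 2, Egln3 and Ldhb in each case, with a pseudocount of 0.1 FPKM, a mean of at least 5 FPKM, median ratio scaling, quantile normalization, no mean-variance trend, the replicate block and limma voom on recovered reads. The count of members that fell was 0 with no filter on low values (30034 features tested), 4 at a common FPKM sum, 4 with array weights by genotype and 1 when SLE1.2.3 mice 2 and 3 were both omitted, and between 0 and 18 with single mice left out; the higher count was 0 throughout. Rescaling to a common FPKM sum moved the median of all features to 0.11, and that of the members to -0.30. Of all features, 635 were lower and 1098 higher. These were 310 and 488 with no filter, 391 lower with a mean of at least 5 FPKM, 351 lower at a common FPKM sum, 334 and 606 with the replicate block, 187 and 478 with that pair of mice omitted, and between 70 and 1573 lower and between 170 and 2128 higher with single mice left out. Lower features made up 36.6% of the calls, 26.2% at a common FPKM sum and 48.9% under quantile normalization.

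Sugar handling genes (3 lower, 0 higher) had 1 lower with no filter, at a common FPKM sum and with mice 2 and 3 left out, when 1 was also higher, and 0 under the block, with 0 to 10 lower and 0 to 3 higher over single mice. Pentose phosphate genes (1 lower) had 0 with no filter, at a common FPKM sum and with mice 2 and 3 left out, 2 under quantile normalization, and 0 to 1 lower and 0 to 2 higher over single mice. Pyruvate entry genes (4 lower, 1 higher) had 1 lower with no filter, 2 at a common FPKM sum, without the trend, under the block and with mice 2 and 3 left out, 0 higher at a mean of at least 5 FPKM, and 0 to 5 lower and 0 to 2 higher over single mice. HIF regulators (1 lower, 3 higher) had 1 higher with no filter, 0 lower at a mean of at least 5 FPKM, 2 lower under median ratio scaling, quantile normalization, no trend and array weights, and 1 to 4 lower and 1 to 5 higher over single mice. Further hypoxia targets (4 lower, 3 higher) had 1 lower with no filter, 1 higher under the block, 1 lower and 1 higher with mice 2 and 3 left out, and 0 to 15 lower and 1 to 5 higher over single mice. Growth regulators (1 lower, 2 higher) had 0 and 0 with no filter, 1 higher at a mean of at least 5 FPKM and under the block, 0 lower without the trend and with mice 2 and 3 left out, 0 lower and 1 higher with voom, and 0 to 3 lower and 0 to 4 higher over single mice.

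Among members that did not pass, signs flipped for values near 0. With mice 2 and 3 of the SLE1.2.3 group omitted, the log2 changes of Slc16a3, Aldoa, Eno3 and Pkm were 0.0456, 0.160, 0.149 and 0.0215. At a common FPKM sum Eno3 was at 0.0484. Under median ratio scaling and quantile normalization Pfkl was at -0.0120 and -0.0197 and Hif1a at -0.0253 and -0.0248. With single mice left out Pfkl lay between -0.0704 and 0.134, Hif1a between -0.0498 and 0.0512, Aldoa between -0.269 and 0.0510 and Eno3 between -0.151 and 0.0204. The Slc16a1 share difference lay between -1.52 and 3.27 percentage points over single mice. The cause of these moves was not tested. The labels number mice 1 to 3 in both groups, and deviations of same-numbered mice correlated at -0.004, 0.1001 and 0.0914, so no pairing was assumed. Under the replicate block 940 features passed, and Egln3 and Ldhb remained called (limma adjusted p = 0.0324 and 0.0215).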
